A study of Mus musculus with 5 samples.

Results

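Of the 4688 cytosine positions whose methylation the authors listed as different between common myeloid progenitors of mice with normal and with short telomeres, 199 lay in introns near gene starts. They were taken from both deposited tables by annotation alone. A position had to lie on chromosome 1 to 19, in an intron, outside promoters, exons, CpG islands and island shores, and at most 10000 bp from the nearest RefSeq start site. Of the 199 positions, 96 were listed as higher and 103 as lower in the mice with short telomeres. They fell on 196 CpGs near the starts of 165 genes, in 166 clusters in which each position was at most 1 kb from the next. Of these genes, 144 had 1 position and 21 had 2 or more. Positions of 1 cluster lie close together, may share sequencing fragments and cannot be taken as independent.

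Common myeloid progenitors (CMP) are bone marrow cells that give rise to granulocytes, monocytes, erythroid cells and platelets. They had been sorted by flow cytometry from bone marrow of mice on a strain background labelled "mainly C576BL/6". The 3 control pools, called G0, came from mice labelled normal with the genotype TERTER/+, and the 2 other pools, called G5, from mice with short telomeres and the genotype TERTER/ER. TERT-ER is telomerase reverse transcriptase fused to part of the oestrogen receptor, so the controls also carried 1 copy of the altered allele. Treatment, age, sex and the number of mice in a pool are not stated in the labels used here. The identity of the sorted cells could not be checked against markers, since lists of differing positions were the only data used. Reduced representation bisulfite sequencing, which reads methylation at CpGs close to CCGG sites, gave 29 to 38 M reads for a pool. The deposited values are percents without read counts, so the depth behind a single level is unknown and no counting interval is given.

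Most CpGs in introns of mammalian cells are methylated, and CpGs at intermediate or low levels outside islands are often found at enhancers and other sites bound by transcription factors. The first intron of a gene is a frequent place for such elements. DNA methyltransferases add the methyl group and copy it at cell division, and it is lost when copying fails or when TET enzymes oxidise it. The comparison asks where intron CpGs near gene starts differ between progenitors of both kinds of mice. Every position here had been listed because it differed in these same 5 pools, so the direction of a difference is given as a description.

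The sequences below carry the groups of neighbouring CpGs on which the results turn, and the CpG pair of Slc2a7 that was listed in opposite directions. They are plus-strand sequence of GRCm38, the assembly of mm10, from 20 bases before the first to 20 bases after the last listed CpG, with listed CpGs in capitals.
2310005E17Rik, intron 1, higher in G5, chr13:98430073-98430260: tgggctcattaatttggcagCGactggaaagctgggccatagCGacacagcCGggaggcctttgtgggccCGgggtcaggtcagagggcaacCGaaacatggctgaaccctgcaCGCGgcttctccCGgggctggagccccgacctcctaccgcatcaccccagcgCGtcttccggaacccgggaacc
Wnt3a, intron 1, higher in G5, chr11:59284273-59284377: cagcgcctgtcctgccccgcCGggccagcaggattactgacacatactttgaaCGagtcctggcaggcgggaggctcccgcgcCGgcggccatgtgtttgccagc
Ehbp1, intron 22, nearest start Otx1, higher in G5, chr11:22007280-22007330: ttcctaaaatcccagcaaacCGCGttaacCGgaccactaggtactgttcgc
Kcnab2, intron 1, higher in G5, chr4:152456932-152456987: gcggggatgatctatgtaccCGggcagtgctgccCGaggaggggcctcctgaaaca
Fgf12, intron 1, nearest start Mir690, lower in G5, chr16:28596355-28596459: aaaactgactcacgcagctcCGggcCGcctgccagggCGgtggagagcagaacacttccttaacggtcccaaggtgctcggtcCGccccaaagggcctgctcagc
Irf1, intron 7, lower in G5, chr11:53774682-53774787: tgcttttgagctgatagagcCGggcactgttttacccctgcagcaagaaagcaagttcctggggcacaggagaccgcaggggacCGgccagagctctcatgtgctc
Gli2, intron 1, lower in G5, chr1:119048922-119048963: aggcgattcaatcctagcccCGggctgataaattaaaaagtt
Slc2a7, intron 5, first CpG higher and second CpG lower in G5, chr4:150157746-150157826: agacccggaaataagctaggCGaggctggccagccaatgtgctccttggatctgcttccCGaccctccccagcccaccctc
In 2310005E17Rik 9 of the 14 CpGs in this stretch were listed, in Fgf12 4 of 7, in Ehbp1 3 of 4 and in Wnt3a 3 of 9.

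Averaged within each pool, the 96 positions listed as higher stood at 49.9%, 52.1% and 51.5% in the G0 pools and at 71.6% and 71.0% in the G5 pools. The mean was 51.1% ± 1.15 (SD, n = 3) in G0 against 71.3% ± 0.427 (SD, n = 2) in G5, which differ by 20.2 points. The 103 positions listed as lower averaged 68.7%, 66.3% and 67.8% in the G0 pools and 46.8% and 51.4% in the G5 pools. Their mean was 67.6% ± 1.21 (SD, n = 3) in G0 against 49.1% ± 3.25 (SD, n = 2) in G5, which differ by -18.5 points. The sets were formed by the listed direction in these same pools, so group averages that lay apart were largely fixed in advance. The G5 pools differed more from each other at the lower positions. The median absolute difference was 17.8 points in either direction, beside 16.3 points over all listed positions.

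**Figure D1:**
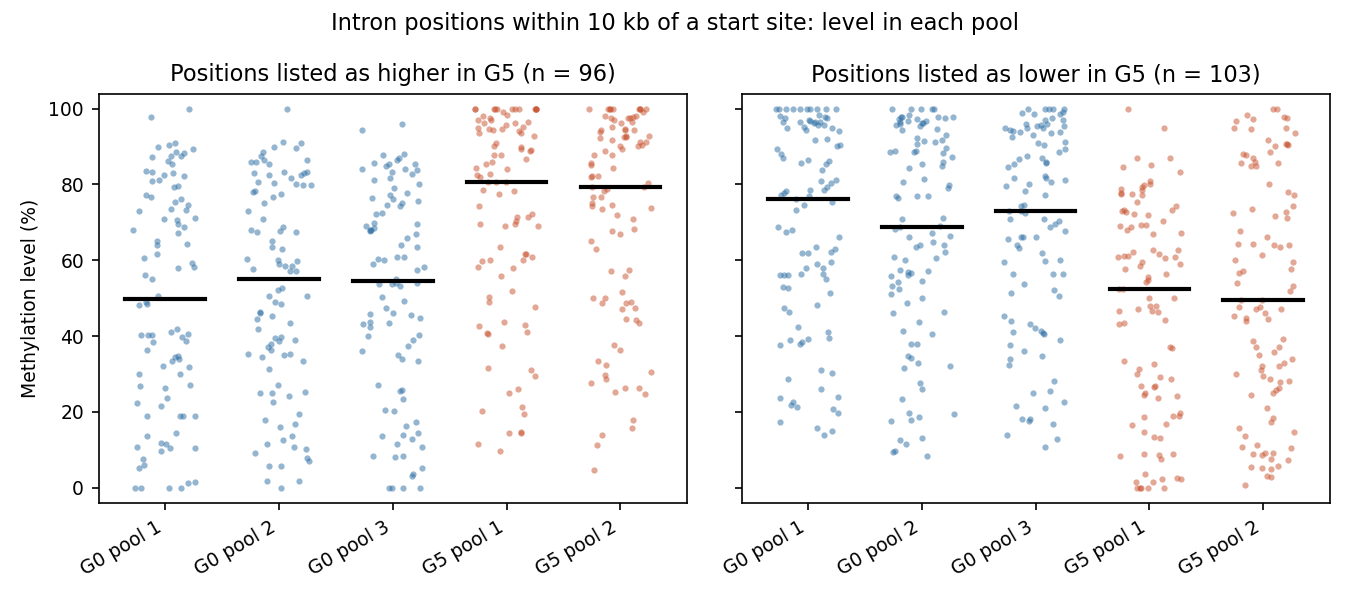
Methylation level in percent (y axis) of each intron position within 10 kb of a start site in each of the 5 pools (x axis), for the 96 positions listed as higher (left) and the 103 listed as lower (right) in G5. Each point is 1 position and black lines are medians, which run from 49.8% to 54.9% in G0 and from 79.3% to 80.7% in G5 on the left, and from 68.7% to 76.1% in G0 and from 49.5% to 52.4% in G5 on the right.

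The starting levels of both sets differed in range, which the listing partly fixed. Only differences above 10 points were listed, so a higher position could not start close to full methylation, nor a lower one close to none. Among the higher positions 58 had a G0 mean between 20% and 80%, 19 lay below 20% and 19 above 80%, and in G5 47 had a mean above 80%. Of the lower positions 45 had a G0 mean above 80%, 51 lay between 20% and 80% and 7 below 20%, and 20 had a G5 mean under 20%. Differences over 30 points were found at 7 higher and 3 lower positions, and over 20 points at 34 and 36.

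Both G5 pools lay beyond all 3 G0 pools at 89 of the 96 positions listed as higher (92.7%) and 85 of the 103 listed as lower (82.5%). The same held for 86.9% of all listed higher and 83.9% of all listed lower positions, so these shares were near the background. Limma's moderated test over all 4688 listed positions, with Benjamini-Hochberg adjustment, called 37 higher and 37 lower intron positions at an adjusted p under 0.05. That is 38.5% and 35.9%, beside 33.2% of all listed higher and 33.0% of all listed lower positions. At an unadjusted p under 0.05 there were 70 and 67. Without G0 pool 1, 2 or 3 the test called 0, 1 and 0 higher and 0, 0 and 0 lower positions, while 40 to 51 positions per direction had an unadjusted p under 0.05. With G5 pool 1 or 2 left out, the spread within G5 cannot be measured, so calls from those fits are not interpreted.

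The G5 pools often disagreed at positions listed as lower from a high level. At the 103 lower positions the median gap between the G5 pools was 11.3 points, and 29 positions had a gap over 20 points, beside 6.94 points and 13 positions in the higher set. This was not particular to these introns. In introns over 10 kb from a start the median gap was 11.6 points at lower and 4.53 points at higher positions, and over all listed positions 8.44 and 7.82 points. Of the 45 lower positions with a G0 mean above 80%, 34 were lower in G5 pool 1 than in G5 pool 2. At 9 of these 45 only G5 pool 1 was below every G0 pool, at 2 only G5 pool 2 was, and at 34 both were. The sign of the difference turned at 3 lower positions without G5 pool 1, near Prickle2, Trim2 and Gsto2, and at 4 without G5 pool 2, among them those near Il4, Dmrtb1 and Uqcr11. Among the higher positions it turned at 1, near Rpusd1, without G0 pool 2, which stood at 48.6% beside 100% and 96.1%. These genes were chosen after their values were seen.

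The longest run of higher positions lay in intron 1 of 2310005E17Rik, a transcript with no role given here. There 10 positions on 9 CpGs, at chromosome 13, 98430093 to 98430239, lay 4827 to 4973 bp downstream of the start. Averaged over them the G0 pools stood at 40.8%, 47.8% and 59.0% and the G5 pools at 70.4% and 72.1%. Both G5 pools were above every G0 pool, and the G0 pools were spread out, with pool 1 lowest. The mean was 49.2% ± 9.23 (SD, n = 3) in G0 against 71.2% ± 1.22 (SD, n = 2) in G5, 22.0 points higher. Single positions differed by 12.9 to 34.2 points, 9 of 10 without overlap of the groups, and limma called 3, with a smallest adjusted p of 0.0426. At the position with the largest difference, 98430239, the groups overlapped, with 26.8%, 25% and 64.0% across the G0 pools and 60.0% and 85.7% across the G5 pools. The least methylated CpG of the run, at 98430187, stood at 21.6%, 22.7% and 33.3% across the G0 pools and 48.9% and 36.3% across the G5 pools, so neighbouring CpGs within these 188 bases held different levels. Both strands of the CpG at 98430164 and 98430165 were listed, and they were 12.9 and 17.2 points higher.

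Wnt3a encodes a secreted Wnt ligand that signals through beta-catenin. Its 3 positions in intron 1, at chromosome 11, 59284292 to 59284356, averaged 72.0%, 64.4% and 68.6% in the G0 pools and 92.9% and 90.3% in the G5 pools. No G5 pool came near the G0 range. The mean was 68.3% ± 3.81 (SD, n = 3) in G0 against 91.6% ± 1.80 (SD, n = 2) in G5, 23.3 points higher, and limma called 2 of 3, with adjusted p from 0.0412 to 0.0587.

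The homeobox gene Otx1, a regulator of forebrain development, was the nearest start for 3 positions that lie 5650 to 5659 bp upstream of it, inside intron 22 of its neighbour Ehbp1, which acts in endocytic transport. They averaged 39.3%, 41.7% and 35.7% across the G0 pools and 53.4% and 60.2% across the G5 pools. All 3 positions were free of overlap between the groups. The mean was 38.9% ± 3.02 (SD, n = 3) in G0 against 56.8% ± 4.8 (SD, n = 2) in G5, 17.9 points higher, and limma called 2 of 3, with adjusted p from 0.0444 to 0.0617. Within 9 bases the G0 mean ran from 23.3% to 56.3%, so adjacent CpGs here also kept levels of their own.

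Kcnab2 encodes an auxiliary beta subunit of voltage-gated potassium channels. Its positions in intron 1, at chromosome 4, 152456951 and 152456965, averaged 54.1%, 63.3% and 50.8% across the G0 pools and 78.2% and 83.1% across the G5 pools. Both were called, with adjusted p of 0.0442 and 0.0426, and the groups lay apart at each. Mir338, a microRNA gene, lies within Aatk, a kinase gene, and both strands of 1 CpG in intron 2 of Aatk were listed. There the G0 pools stood at 67.3%, 65.4% and 61.0% and the G5 pools at 86.7% and 86.2%, 21.9 points higher, with adjusted p of 0.0462 and 0.0426. Both strands of this CpG showed the G5 pools on top.

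Cdh23, which encodes a cadherin of inner ear hair cells, stood lower on the scale. Its 2 positions in intron 1 averaged 20.2%, 18.2% and 17.5% across the G0 pools and 32% and 37.6% across the G5 pools, 16.2 points higher. The groups were apart at both, and limma called 1, with adjusted p of 0.0444 and 0.0507. Septin9, a gene of the septin cytoskeleton, averaged 25.6%, 18.1% and 23.8% across the G0 pools and 53.7% and 27.6% across the G5 pools over its 2 positions in intron 1. Only G5 pool 1 stood clearly higher, the difference of 18.2 points was 5.15 without that pool and 31.2 without G5 pool 2, and no position was called, with adjusted p of 0.0805 and 0.0971.

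The longest run of lower positions lay near Mir690, a microRNA gene, inside intron 1 of Fgf12, which encodes a fibroblast growth factor homologue that stays in the cell and binds sodium channels. The intron is 354445 bp long. Its 4 positions, at chromosome 16, 28596374 to 28596438, averaged 75.8%, 66.3% and 70.0% in the G0 pools and 46.5% and 41.3% in the G5 pools. Each of the 4 was lower in both G5 pools than in every G0 pool. The mean fell from 70.7% ± 4.77 (SD, n = 3) to 43.9% ± 3.71 (SD, n = 2), 26.8 points, and all 4 were called, with adjusted p from 0.0412 to 0.0452. The largest of these differences, -30.5 points, was at 28596438, with 67.4%, 67.2% and 77.1% across the G0 pools and 44.3% and 35.9% across the G5 pools.

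Irf1 encodes an interferon regulatory factor, a transcription factor of the interferon response that is active in blood cells. Its 2 positions lay in intron 7, at chromosome 11, 53774701 and 53774766, 4230 and 4295 bp downstream of the start. The position at 53774701 stood at 61.9%, 64.0% and 73.0% across the G0 pools and 37.0% and 49.5% across the G5 pools. The position at 53774766 stood at 31.1%, 38.0% and 37.7% across the G0 pools and 8.77% and 10.4% across the G5 pools. Both G5 pools were below every G0 pool at each position. The mean over both fell from 51.0% ± 4.42 (SD, n = 3) to 26.4% ± 4.99 (SD, n = 2), 24.5 points, with adjusted p of 0.0456 and 0.0412.

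In Pdpn and Myl10 the G5 pools stood farther apart. Pdpn encodes podoplanin, a surface glycoprotein of lymphatic endothelium. Its 2 positions in intron 1 averaged 57.6%, 56.5% and 55.1% across the G0 pools and 19.0% and 46.6% across the G5 pools. The G0 pools agreed closely, G5 pool 1 stood far below pool 2, and neither position was called, with adjusted p of 0.0531 and 0.0649. The difference of -23.6 points was -9.85 without G5 pool 1 and -37.4 without G5 pool 2. Myl10, a myosin light chain gene, averaged 60.1%, 59.4% and 60.8% across the G0 pools and 28.5% and 44.5% across the G5 pools, a difference of -23.6 points that was -15.5 without G5 pool 1. Of its 2 positions 1 was called, with adjusted p of 0.0444 and 0.0568.

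The transcript 4833412C05Rik, with 2 positions in its intron 1, averaged 80.8%, 68.6% and 78.2% across the G0 pools and 55.4% and 52.1% across the G5 pools, and both were called with adjusted p of 0.0444 and 0.0456. The transcript Gm4566 had 3 positions, which averaged 43.9%, 39.2% and 47.6% across the G0 pools and 20% and 29.1% across the G5 pools. The averages lay apart in both genes, and in Gm4566 limma called 2 of 3, with adjusted p from 0.0496 to 0.0918. Qrfp, a neuropeptide gene, and Cpne6, which encodes a calcium-dependent membrane-binding copine, each had 2 lower positions and no call. Their averages were 73.3%, 72.5% and 68.6% across the G0 pools and 56.0% and 50.9% across the G5 pools for Qrfp, with adjusted p of 0.0548 and 0.133, and they differed by -17.2 points for Cpne6, with adjusted p of 0.0617 and 0.0695.

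**Figure D2:**
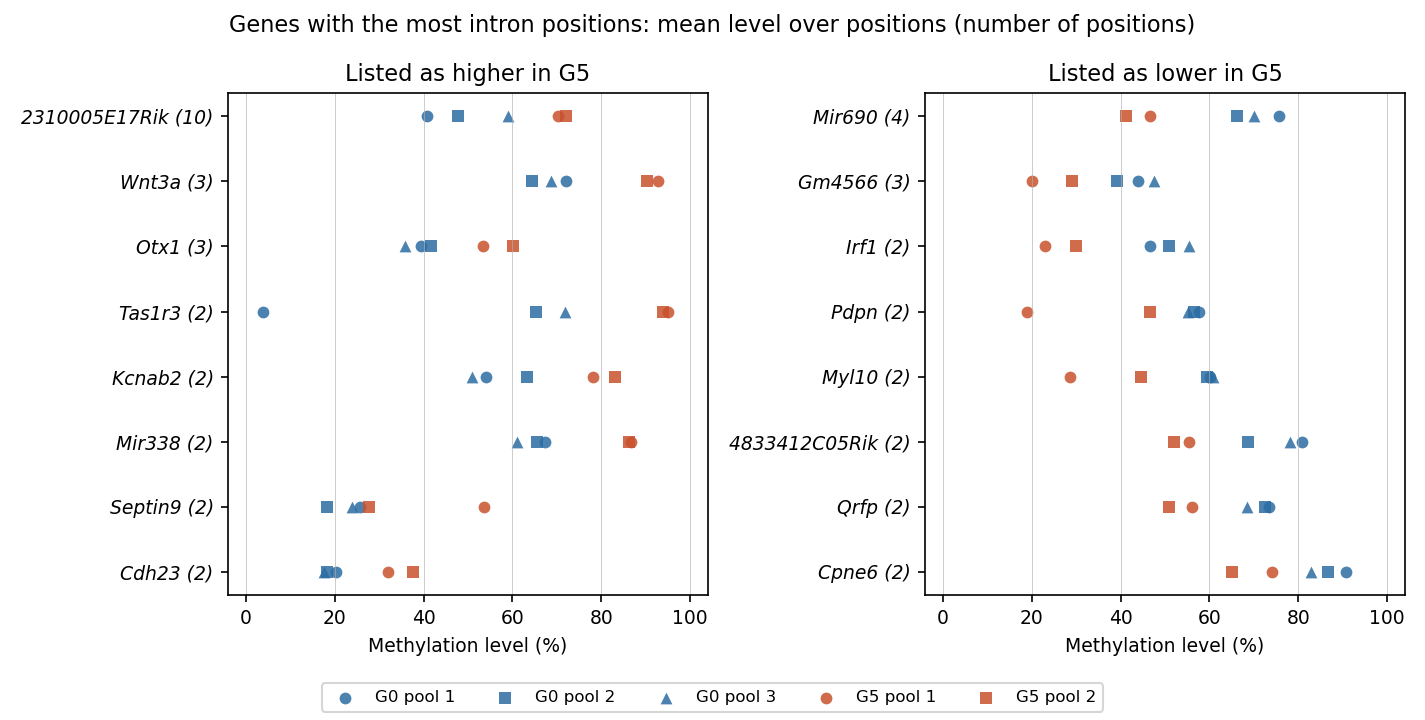
Mean methylation level in percent (x axis) over the intron positions of the 8 genes with the most positions in each direction (y axis, number of positions in brackets). Each symbol is 1 pool, blue for G0 and red for G5. The Tas1r3 pools in G0 run from 3.73% to 71.8%, and the G5 pools of Septin9 stand at 53.7% and 27.6%.

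The 3 largest differences at single positions all lay on chromosome 4 beyond 150 Mb. Slc2a7, a sugar transporter gene, stood at 0%, 39.8% and 0% across the G0 pools and 86.8% and 92.9% across the G5 pools at 150157765 in intron 5, 76.6 points higher with an adjusted p of 0.0412. Plekhg5, which encodes an exchange factor for small GTPases, stood at 0%, 33.3% and 0% across the G0 pools and 100% and 75% across the G5 pools at 152102190 in intron 2, 76.4 points higher with an adjusted p of 0.0412. In both genes G0 pools 1 and 3 were listed at 0 and G0 pool 2 stood between them and G5.

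Tas1r3 encodes a subunit of the sweet and umami taste receptors, and its 2 positions are both strands of 1 CpG in intron 11 of Dvl1, the gene of a Wnt signal transducer. At 155855966 the G0 pools stood at 1.41%, 50.6% and 58.2% and the G5 pools at 94.5% and 96.5%, with an adjusted p of 0.0468. At 155855965 they stood at 6.06%, 80.2% and 85.4% and at 95.7% and 91.2%, with an adjusted p of 0.182. Here G0 pool 1 alone was near 0 on both strands, and without it the mean difference of 47.5 points was 25.9. Without the 8 higher positions beyond 150 Mb of this chromosome, the mean difference of the other 88 was 18.2 points and the largest was 35.1 points. Limma called 30 of the 88, and 81 had no overlap of the groups. This border was chosen after the values were seen.

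Slc2a7 was also the one gene with positions in both directions. In the same intron, 39 bp from the CpG that was higher, the CpG at 150157805 stood at 89.3%, 91.8% and 85.9% across the G0 pools and 62.6% and 74.2% across the G5 pools. It fell by 20.5 points, with an adjusted p of 0.0452. In G5 this pair of CpGs stood closer together, at a mean of 89.8% and 68.4%, than in G0, at 13.3% and 89.0%.

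Away from distal chromosome 4, the largest single gain was in intron 1 of Cntn2, which encodes a contactin of neurons. Its position stood at 40.3%, 46.4% and 49.4% across the G0 pools and 84.2% and 76.8% across the G5 pools, 35.1 points higher with an adjusted p of 0.0412. Gm4814, whose position lies in intron 9 of the muscle gene Cmya5, stood at 40.3%, 35.1% and 43.4% across the G0 pools and 61.7% and 78.4% across the G5 pools, 30.4 points higher with an adjusted p of 0.0426. Pald1, which encodes the phosphatase-like protein paladin, stood at 9.64%, 5.88% and 13.7% across the G0 pools and 31.6% and 47.3% across the G5 pools, 29.7 points higher with an adjusted p of 0.0426. None of these showed overlap, and the G5 pools of Gm4814 and Pald1 were farther apart than their G0 pools.

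The largest single loss was near Rap1gap, which encodes a GTPase-activating protein for Rap1. Its position, 3912 bp upstream of the nearest start, stood at 56.5%, 54.5% and 74.6% across the G0 pools and 24.6% and 32.2% across the G5 pools, a difference of -33.5 points with an adjusted p of 0.0427. GENCODE's basic set holds no intron there, so its intron label comes from the authors' annotation alone. Tbc1d9b, a gene with a Rab-regulating TBC domain, stood at 56.3%, 46.5% and 61.9% across the G0 pools and 24.1% and 21.1% across the G5 pools, a difference of -32.3 points with an adjusted p of 0.0412. In both genes the G5 pools were close to each other and well below G0.

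Pla2g1b, the gene of a phospholipase secreted by the pancreas, stood at 78.6%, 85.9% and 81.7% across the G0 pools and 59.6% and 47.2% across the G5 pools, with an adjusted p of 0.0412. Gli2, a transcription factor of Hedgehog signalling, stood at 61.9%, 60.0% and 44.1% across the G0 pools and 25% and 31.1% across the G5 pools at its position in intron 1, with an adjusted p of 0.0444. These fell by 28.7 and 27.3 points. Smpd5, whose position lies in intron 19 of the oxoprolinase gene Oplah, fell by 27.2 points and Gse1 by 26.8 points, with adjusted p of 0.0452 and 0.0456. Xpot, which encodes a transfer RNA exporter, stood at 83.9%, 76.9% and 79.7% across the G0 pools and 31.2% and 71.1% across the G5 pools. Only G5 pool 1 was far below the G0 pools, the difference of -29.0 points was -9.13 without it and -48.9 without G5 pool 2, and the adjusted p was 0.0679.

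**Figure D3:**
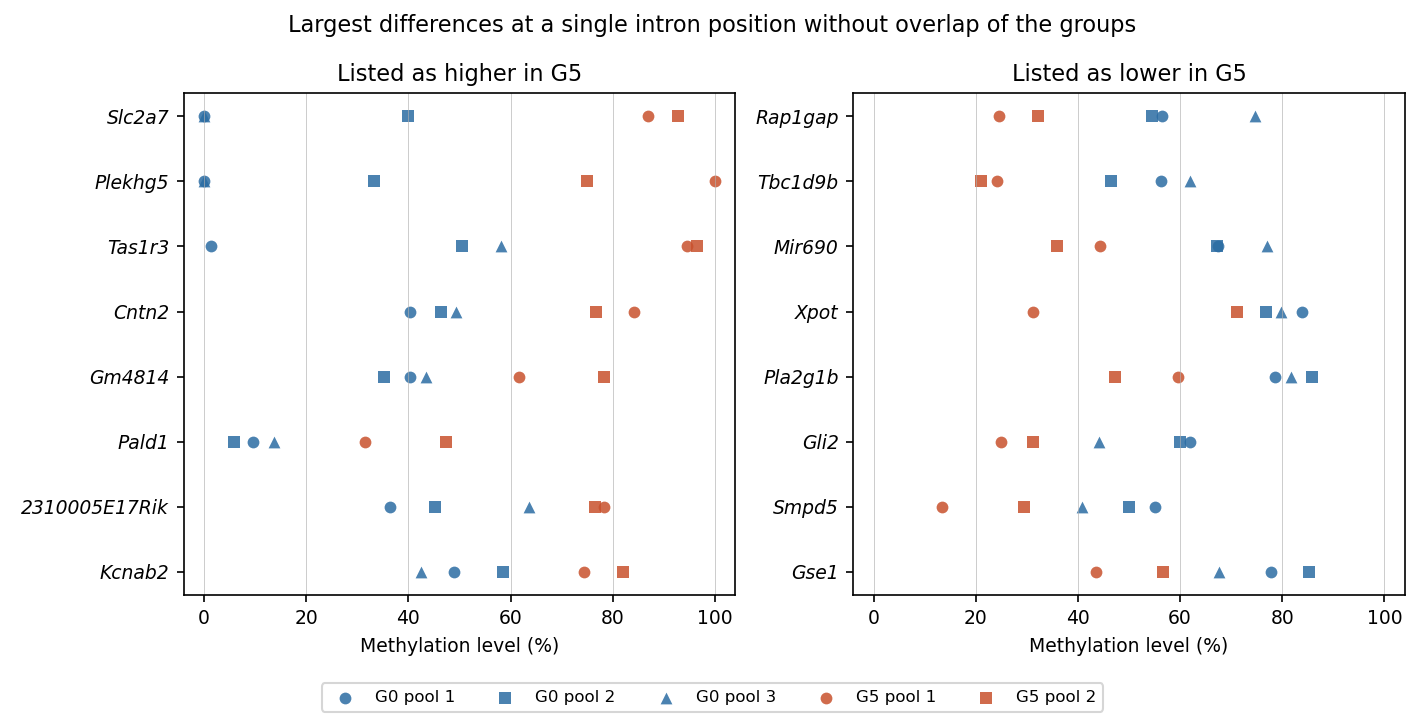
Methylation level in percent (x axis) in each pool at the single intron position with the largest difference in each of 8 genes per direction (y axis), among positions at which the groups do not overlap. Blue symbols are G0 pools and red symbols G5 pools. In Slc2a7 and Plekhg5 2 of the 3 G0 pools are at 0%, and in Xpot the G5 pools stand at 31.2% and 71.1%.

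The lists for blood cells do not hold every such gene, so the counts below cover the list genes only. Il4, Ifngr2 and Tnfsf4, for example, had intron positions here but are on none of the lists. Of 70 haematopoietic transcription factors, 18 were the nearest start of a listed position of any kind and 2 of one in these introns, and the lists below are counted in the same way. Irf1 is described above, and the other was Hlf, a leucine zipper factor of blood stem cells, which stood at 55.1%, 68.8% and 68.1% across the G0 pools and 91.0% and 73.6% across the G5 pools in intron 2. The groups did not overlap, but the adjusted p was 0.0694 and the difference of 18.3 points was 9.59 without G5 pool 1. Of 91 receptors, cytokines and surface proteins 9 were listed and 1 had an intron position, Gp1bb, a subunit of the platelet receptor for von Willebrand factor. It stood at 34.8%, 31.4% and 37.5% across the G0 pools and 72.3% and 50% across the G5 pools, with both G5 pools above G0. The difference of 26.6 points had an adjusted p of 0.0463 and was 15.4 without G5 pool 1, and the position lies in intron 7 of the neighbouring septin gene, 1636 bp upstream of the Gp1bb start.

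Of 74 signalling genes of blood cells, 13 were listed and 2 had an intron position. The kinase gene Akt2 had 2 higher positions in intron 1, which differed by 13.7 and 15.4 points. Its position at 27596982 stood at 19.0%, 16.1% and 8.42% across the G0 pools and 31.0% and 28.8% across the G5 pools. Neither was called, with adjusted p of 0.101 and 0.0520, and the mean difference of 14.5 points was 8.92 without G5 pool 1. Arhgap9, which encodes a GTPase-activating protein of blood cells, stood at 37.6%, 41.3% and 42.2% across the G0 pools and 28.6% and 13.6% across the G5 pools at a position in intron 12 of its neighbour Gli1. Both G5 pools were below G0, with a difference of -19.3 points and an adjusted p of 0.0487, and the difference was -11.8 without G5 pool 2.

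None of 89 chromatin and DNA methylation regulators, of which 17 had a listed position of any kind, had a position in these introns. The same held for 76 telomere and DNA damage response genes, of which 9 were listed. Of 69 RNA splicing factors 13 were listed and 1 had an intron position, the brain splicing regulator Celf5. It stood at 11.7%, 25% and 17.4% across the G0 pools and 25% and 47.3% across the G5 pools, so G5 pool 1 tied with a G0 pool, and the adjusted p was 0.0802.

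Developmental transcription factors, which pattern the embryo, had the most genes of the lists in these introns, 8, but also the most genes with a listed position of any kind, 70 of 143, and the share was not tested. Their 7 higher positions lay near Otx1, Foxa3, Tbx4, Tbx5 and Tbx18 and had a median difference of 16.8 points, and limma called 2, both near Otx1. The list is not complete. Emx1, Twist2, Pdx1 and Onecut3 also had higher positions but are not on it, and limma called those of Emx1 and Twist2. Tbx5, a factor of heart and forelimb, stood at 22.3%, 34.4% and 39.0% across the G0 pools and 55.8% and 43.6% across the G5 pools, with an adjusted p of 0.0660. Foxa3, a forkhead factor of the liver, and Tbx18 differed by 14.6 and 14.2 points, with adjusted p of 0.0705 and 0.0508. Their groups did not overlap, while at Tbx4 they did.

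The 4 lower positions of that list lay near Gli2, Nr2f2 and Dlx4, and the one near Gli2 was called. Nr2f2, an orphan nuclear receptor of vessels and mesenchyme, stood at 26.1%, 11.6% and 25% across the G0 pools and 1.56% and 9.09% across the G5 pools, with an adjusted p of 0.0683. The 2 positions near the homeobox gene Dlx4, in intron 1 of its antisense transcript Dlx4os, differed by -12.2 and -11.8 points, with adjusted p of 0.0808 and 0.106. All 4 were lower in both G5 pools, and outside Gli2 the starting levels were low.

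Of 121 ion channel and transporter genes, 35 were listed and 2 had an intron position. The list holds no Slc transporter genes and not Kcnab2, so positions in Slc2a7, Slc4a1, Slc6a4 and Kcnab2, among others, are outside this count. Scn4b, an auxiliary subunit of sodium channels, stood at 73.5%, 57.3% and 67.8% across the G0 pools and 84.3% and 92.6% across the G5 pools, 22.3 points higher with an adjusted p of 0.0467. Over the 8 lists 21 intron positions belonged to list genes, too few to set against the background.

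**Figure D4:**
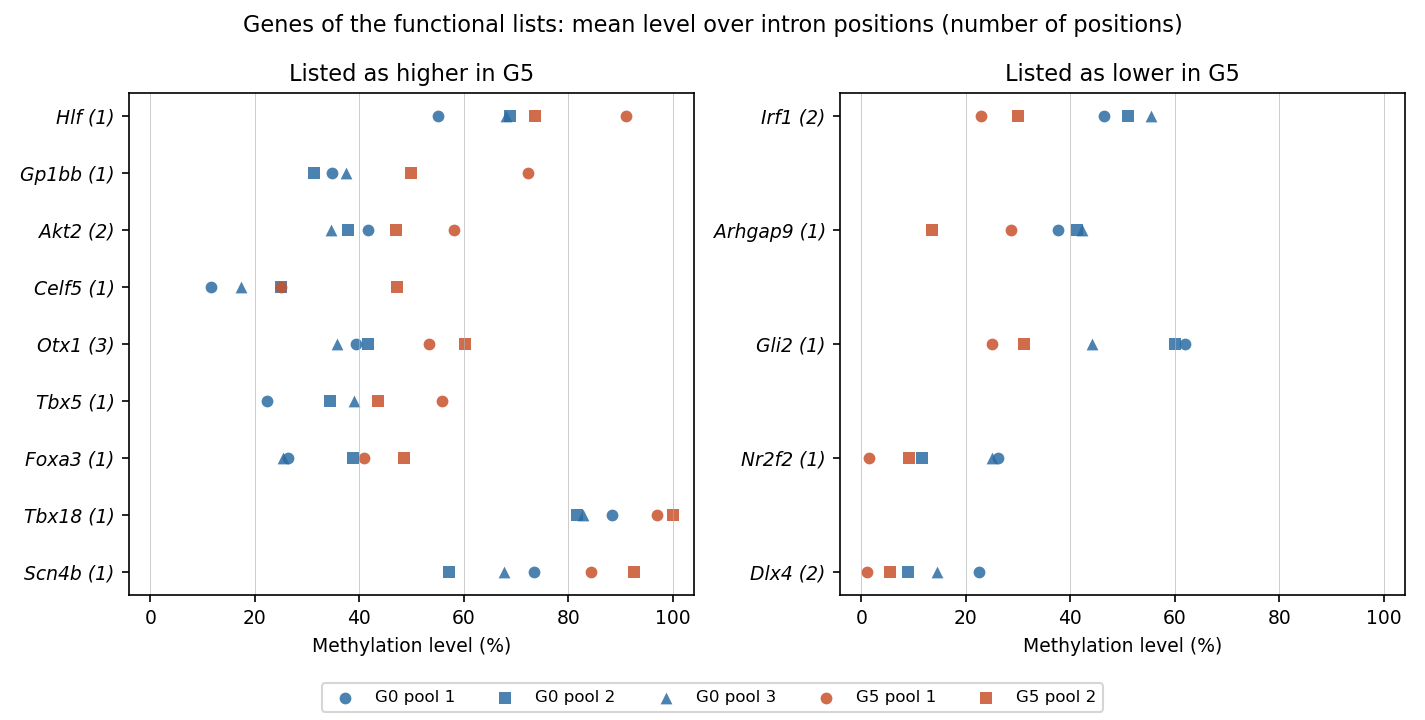
Mean methylation level in percent (x axis) over the intron positions of genes of the functional lists (y axis, number of positions in brackets), at most 4 genes per list and direction. Blue symbols are G0 pools and red symbols G5 pools. Both G5 pools lie beyond all G0 pools in Irf1, Gp1bb and Scn4b, while in Celf5 the groups touch.

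The nearest start was not always that of the gene that holds the intron. By the GENCODE basic set, 153 positions lay in an intron of the nearest-start gene, 41 in an intron of another gene only and 5 in no intron. That set also put 8 positions in an exon of some transcript and 8 within 1 kb of a start site. The authors' annotation had placed all of them outside exons and promoters. A first intron of some transcript held 107 positions, among them 57 of the 96 higher (59.4%) and 50 of the 103 lower (48.5%), and this difference was not tested. Of all 199, 161 lay downstream of the nearest start and 38 upstream. Of the haematopoietic transcription factors, Prdm16 and Tcf3 held an intron position listed under another gene's start, and both were chosen after their values were seen. The position in intron 1 of Prdm16, a transcription factor of stem cells, is listed under 5930403L14Rik. It stood at 40.6%, 41.8% and 36.1% across the G0 pools and 60.0% and 67.8% across the G5 pools, 24.4 points higher with an adjusted p of 0.0416. The position in intron 16 of Tcf3, which encodes E proteins of lymphoid development, is listed under Uqcr11 and stood at 97.6%, 97.3% and 95.5% across the G0 pools and 100% and 77.1% across the G5 pools. There the groups overlapped, the adjusted p was 0.292, and the difference of -8.25 points turned to 3.18 without G5 pool 2 and was -19.7 without G5 pool 1.

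Distance from the start spread from 1 to 10 kb in both sets, with a median of 5106 bp for higher and 4733 bp for lower positions. Between 2500 and 5000 bp lay 39 higher and 41 lower positions, of which limma called 11 and 21. From 5000 to 7500 bp it called 15 of 32 higher and 9 of 21 lower positions, from 7500 to 10000 bp 10 of 17 and 6 of 27, and below 2500 bp 1 of 8 and 1 of 14. Over all listed positions it called 33.2% of higher and 33.0% of lower. Of the 39 higher positions between 2500 and 5000 bp, 10 were the run in 2310005E17Rik, and a trend with distance was not tested. The medians of the difference over these bins ran from 12.1 to 18.8 points for higher and from -19.2 to -15.7 points for lower positions. Just inside the limit of 10000 bp lay Gm4814, described above, and Zfp523 and Nt5c2. Zfp523 had a mean of 94.5% in G0, and its G5 pools stood at 87.1% and 57.6%, so that its difference of -22.2 points was -7.42 without G5 pool 2 and -36.9 without G5 pool 1. Nt5c2 had a mean of 70.9% in G0 and G5 pools at 61.0% and 45.3%, and its difference of -17.8 points was -9.94 without G5 pool 2. Just outside lay 3 higher positions near Dntt, which went from 32.4% to 56.2%, from 31.4% to 53.2% and from 33.9% to 51.9%, and 1 lower position near D11Wsu47e, with a G0 mean of 98.8% and G5 pools at 79.3% and 100%, so only G5 pool 1 was lower there.

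**Figure D5:**
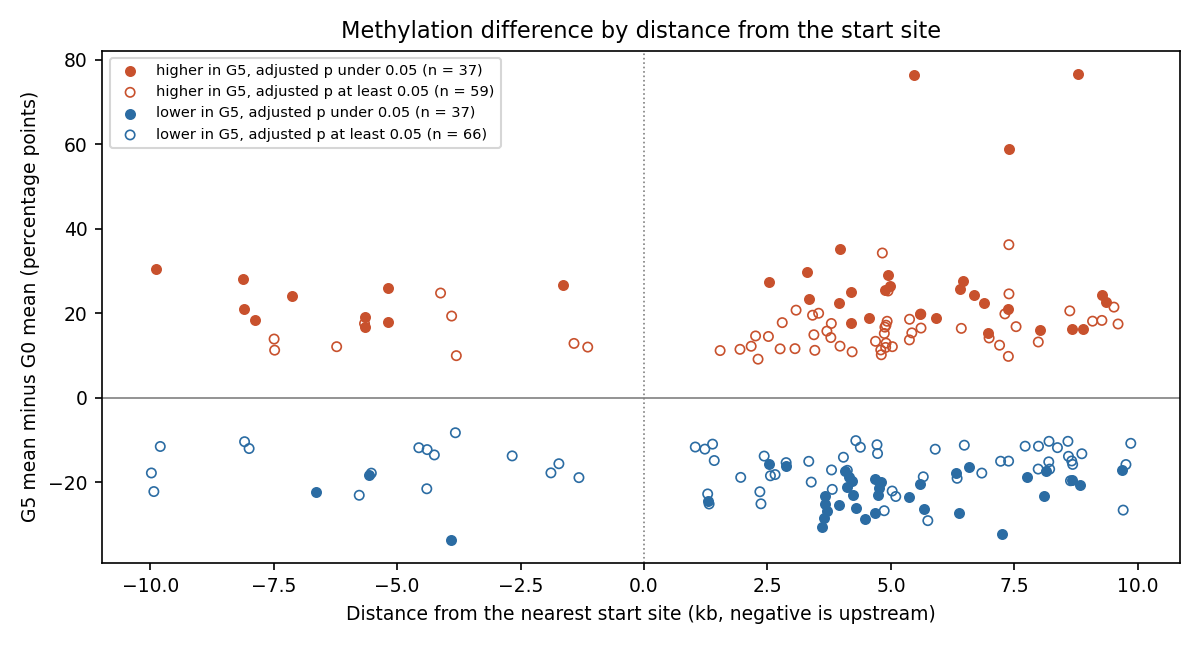
Difference of the G5 and G0 means in percentage points (y axis) against distance from the nearest start site in kb (x axis, negative is upstream) for the 199 intron positions. Filled points have a limma adjusted p under 0.05, 37 in each direction. Points at more than 50 points belong to Slc2a7, Plekhg5 and Tas1r3.

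Introns farther than 10 kb from a start held 536 listed positions, 249 higher and 287 lower. Higher positions near starts had lower levels than those far from starts in every pool, by -17.5, -13.3 and -14.2 points in G0 and -11.4 and -13.4 points in G5. The mean of these differences was -14.0 ± 2.24 (SD, n = 5 pools), with p = 0.0625 in a two-sided exact sign-flip test over pools, the smallest that 5 pools allow, and 0.25 after adjustment over 4 comparisons. For lower positions the mean was -2.39 ± 2.58 points, and near positions were higher in 1 of 5 pools (exact p = 0.1875, adjusted 0.375). The change from G0 to G5 was 20.2 points near and 17.6 points far for higher positions (two-sided exact permutation p = 0.3, adjusted 0.4, smallest possible 0.1). For lower positions it was -18.5 and -19.3 points (exact p = 0.8, adjusted 0.8). With 5 pools none of the 4 comparisons could reach a p under 0.05. All pools read the same positions, so these p-values measure the spread over pools and not over positions. The positions had also been listed for a difference between the same groups.

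The sequence around the intron positions held fewer CpGs than the rest of the listed positions. Windows reaching 50 bp to each side of the CpG's cytosine held a mean of 4.22 CpGs at higher and 3.21 at lower positions, beside 6.82 over all listed and 3.54 over the far introns. The rule leaves out islands and shores, where CpGs are dense. Mean GC content was 59.6% and 56.7%, beside 63.1% over all listed. Every window of listed positions held a CCGG site, at which the assay cuts.

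Short motifs were counted on both strands of these windows, with the share of all listed windows as the background, and none of the motifs contains another. GGAA, the core bound by ETS factors such as PU.1, was in 71.9% of higher and 72.8% of lower windows, beside 64.1% of all listed and 71.8% of the far introns. CANNTG, the E-box of helix-loop-helix factors, was in 26 higher (27.1%) and 47 lower windows (45.6%), beside 35% of all listed and 40.3% of the far introns. TGACTCA, a site of AP-1 factors, was in 0 higher (0%) and 5 lower windows (4.85%), in 3 clusters near Mir690, Jup and 4833412C05Rik. Its shares of higher and lower windows were 0.402% and 3.14% in the far introns and 0.955% and 2.17% over all listed. In the Fgf12 intron sequence above TGACTCA stands ahead of the first listed CpG. AGATAA, read by GATA factors, was in 1 higher (1.04%) and 5 lower windows (4.85%), beside 2.41% and 4.88% in the far introns and 1.38% and 3.04% over all listed. TGTGGT, read by RUNX factors, was in 2 higher (2.08%) and 6 lower windows (5.83%), beside 7.23% and 6.62% in the far introns and 4.32% and 4.83% over all listed. Windows of 1 cluster overlap, these shares were not tested, and a match does not show that a factor binds.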

How the data were processed

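Methylation was measured by reduced representation bisulfite sequencing of 3 G0 and 2 G5 pools of sorted CMP. Per the submitters' processing notes, Bismark 0.7.11 with Bowtie and the mm10 genome gave the methylation calls, which methylKit compared. No source used here states a coverage minimum. The 2 tables the authors deposited hold, per the file headers, the percent methylation of each pool, a p-value and q-value, the authors' methylation difference (a signed score in percentage points) and annotation. They list differing positions only: in these introns q-values stayed below 0.01 and absolute differences above 10 points. Positions are printed as deposited, counted from 0. Coordinates of printed sequences are counted from 1.

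From the deposited percents, group means and SDs over pools were computed, after averaging a gene's positions within a pool. Limma 3.58.1 (R 4.3.3) was fitted to the percents of all 4688 positions, with Benjamini-Hochberg adjustment, and tested on simulated data. The test of read counts planned for the case that counts were given was not run. All positions fell on a CpG of GRCm38. Host introns come from the GENCODE vM21 basic set, and gene names from the tables, of which 3 intron positions had a date in place of a septin symbol and were named by accession. Other steps were run in Python 3.11.15 with pandas 2.3.3 and numpy 2.4.6, pysam 0.24.0, matplotlib 3.10.9 and scipy 1.17.1.

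Named genes are, per direction, the 8 holding most positions, the 8 whose single position without overlap of the groups differed most, list genes, at most 4 per list, and those in both directions. The members and the 8 gene lists were chosen with earlier results of these data known. One list gene is not reported here. Alternatives were leaving out each pool, stricter q-values and differences, intermediate levels, logit values, a mean-variance trend, autosomes, CpGs or clusters as units, a 5 kb limit, a replicate block and, added after seeing the data, leaving out distal chromosome 4.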

Additional observations from a re-analysis of the deposited data

How the results depend on the processing

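The positions were listed for a difference in these pools, no coverage was given, and 2 or 3 pools a group limit every test, so calls describe these libraries. Leaving out 1 pool at a time gave 0 to 26 limma calls among higher and 0 to 48 among lower positions, against 37 and 37, with 90 to 92 and 85 to 96 positions without overlap and mean differences of 19.55 to 20.66 and -20.81 to -16.21 points. The upper ends of both ranges of calls came from the fit without G5 pool 2. With 1 G5 pool the spread within G5 cannot be measured, so calls from such fits are not interpreted. With any G0 pool left out, calls fell to 0 or 1 among higher and to 0 among lower positions. Calls over all 4688 listed positions also fell then, to 0 or 9 per direction. The counts without overlap were 89 and 85 with all pools. Removing a pool cannot make separate groups overlap, so these counts could not fall and do not show stability.

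Other settings moved values largely by keeping fewer positions. A q-value under 0.001 left 41 and 31 positions without overlap, 23 lower calls and mean differences of 24.31 and -22.35 points. Differences of at least 20 points left 32 and 33 without overlap and means of 29.65 and -24.05 points. Levels of 20% to 80% left 52 and 51 without overlap and a mean of 24.52 points for higher positions. A 5 kb limit left 12 and 22 calls, 44 and 44 without overlap and a mean of 17.95 points for higher positions. Without chromosome 4 beyond 150 Mb, chosen after seeing the data, that mean was 18.15 points. The share of higher positions, 48.24%, ran from 45.18% with clusters as units to 52.5% at the stricter q-value. Across the leave-one-out settings, all 200 mean differences of the genes named by the rule kept their direction. Where the groups did not overlap, leaving out a pool could not turn the sign. This outcome was thus largely fixed by the choice of genes and does not show stability.

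Pool numbers are shared between groups, but the labels do not say that they mark a common batch. Without such a label pools were not treated as pairs. Deviations of same-numbered pools correlated at 0.0124 and 0.0476. The deviations of 2 G5 pools mirror each other, so these values cannot decide on pairing. With the replicate block limma called 0 higher and 0 lower positions, with 37 and 38 at an unadjusted p under 0.05.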
